A study of Arabidopsis thaliana with 12 samples.

Results

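The superoxide dismutases of Arabidopsis and the copper protein genes known as targets of the microRNA miR398 were followed in seedlings with mutations in GUN1, FUG1 or both. The list holds 10 of the 36917 gene IDs in the count tables: the Cu/Zn superoxide dismutase genes CSD1, CSD2 and CSD3, their copper chaperone CCS, the iron superoxide dismutase genes FSD1, FSD2 and FSD3, the manganese superoxide dismutase gene MSD1, the blue copper protein gene BCB and the cytochrome c oxidase gene COX5b. They were picked by name, with their levels across the 4 genotypes already known, so their differences between genotypes are given as a description and without p-values. RNA of 4-d-old seedlings was sequenced, in 3 libraries each of wild type (Col-0), gun1-103 (the T-DNA line SAIL_742_A11), fug1-3 (the T-DNA line SAIL_209_E08) and the double mutant gun1-103 fug1-3. Seeds of all 4 genotypes spent 2 d in the dark at 4 °C on Murashige and Skoog medium of reduced strength with 1% sucrose, and seedlings were raised at 22 °C in long days of 16 h, with 100 µmol m-2 s-1 of white light, and nights of 8 h. No inhibitor or copper treatment was part of the design, and each single mutant is represented by 1 allele. GUN1 is a plastid protein of signalling from plastid to nucleus, FUG1 is a translation initiation factor of plastids, and the study asked how they relate in keeping plastid proteins in balance.

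Superoxide dismutases turn superoxide into hydrogen peroxide and oxygen, and plants hold forms with different metals in different compartments. When copper is short, the transcription factor SPL7 binds GTAC motifs and turns on MIR398 and FSD1, and miR398 then guides the cleavage of the messages for CSD1, CSD2 and CCS. Copper is thereby spared for plastocyanin, the copper protein of photosynthetic electron transport, while the iron enzyme FSD1 takes the place of CSD2 in the chloroplast.

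The mature miR398 sequences are shown because 5 of the 10 genes are its known targets. They were read from the RefSeq TAIR10.1 genome, and the capitals mark the seed, bases 2 to 8.
miR398a-3p: uGUGUUCUcaggucaccccuu
miR398b-3p: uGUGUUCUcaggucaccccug
miR398c-3p: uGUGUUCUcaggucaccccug
They lie on the plus strand at chr2:1041012-1041032, chr5:4691107-4691127 and chr5:4694778-4694798. The 3 share the seed GUGUUCU, and the b and c forms are identical over all 21 bases.

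The best match to miR398b-3p in the spliced transcripts of each target gene is given next, 5′ to 3′, with capitals for bases that form a Watson-Crick pair with the microRNA.
CSD1: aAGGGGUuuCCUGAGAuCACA
CSD2: ugcGGGUGACCUGgGaAACAuA
CCS: auuGGGaGACCUGgGAACACu
BCB: agGGGGUGACCUGAGuucuucAACACA
COX5b: aAGGuGUGACCUGAGAAuCACA
The CSD1 match is in the 5′ UTR and spans an intron, within chr1:2827177-2827685 on the plus strand. The CSD2 match (chr2:12015572-12015593, plus strand) and the CCS match (chr1:4267521-4267541, minus strand) are in the coding sequence. The BCB match (chr5:6826592-6826618, plus strand) and the COX5b match (chr3:5299204-5299225, plus strand) are in the 5′ UTR. Matches were scored with a penalty of 1 for a mismatch and 0.5 for a G:U pair, both doubled opposite miRNA positions 2 to 13, and of 2 for a single bulge of up to 6 target bases. CSD1, CSD2 and CCS each scored 6, which 0.153% of 31342 genes matched or bettered. COX5b scored 4 with a bulge of 1 base, as low as 0.0096% of genes, and BCB scored 3.5 with a bulge of 6 bases, as low as 0.0064%. The bulge was allowed after an ungapped scan had been seen and with the published targets known. In that ungapped scan CSD1 and CCS scored 6, COX5b 8, BCB 9.5 and CSD2 10, and 21.8% of genes scored as low as CSD2. The other 5 genes scored between 8.5 (FSD2) and 11 (FSD3) with a bulge allowed, which 7.81% to 79.4% of genes matched or bettered.

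The libraries held 8519197 to 12360838 counts, of which plastid-encoded genes took 53.4% to 84.4%. That share was 68.5% to 73.1% in wild type, 75.0% to 76.7% in gun1 and 81.7% to 84.4% in fug1. In gun1 fug1 1, 2 and 3 it was 70.9%, 70.8% and 53.4%. Levels are given as CPM, library-size-adjusted counts, with factors from the trimmed mean of M values (TMM). GUN1 stood at 34.9 ± 4.73 CPM (SD, n = 3) in wild type, 8.53 ± 1.18 in gun1 and 8.99 ± 1.49 in gun1 fug1. FUG1 stood at 35.5 ± 9.07 CPM in wild type, 8.73 ± 2.79 in fug1 and 11.3 ± 3.77 in gun1 fug1. Each gene was thus lower in the mutants labelled for it. FUG1 was also at 33.8, 17.8 and 13.9 CPM in gun1 1, 2 and 3, where wild type had 26.3 to 44.4. With 15.6 CPM in gun1 fug1 3, FUG1 levels did not separate gun1 from gun1 fug1. GUN1 in fug1 was at 31.8, 28.6 and 24.6 CPM. One library, gun1 fug1 3, stood apart: 23881 genes had no count in it, and TMM gave it a factor of 0.0723 where the remaining 11 libraries had 0.800 to 2.05. Those factors went with genotype, at 1.77 to 2.05 in wild type, 1.13 to 1.36 in gun1 and 0.800 to 0.913 in fug1. In gun1 fug1 1 and 2 they were 1.26 and 1.27. The loci AT2G41310 and AT2G09250 together took 31.0% of all counts in gun1 fug1 3, against 0.662% to 4.69% in the remaining 11 libraries. In that library 1 count was worth more CPM than in any other, and a count of 3 corresponded to 3.60 CPM. Results that use the double mutant are therefore also given without it where they change. Seed storage markers (6 genes) summed to 5.70 to 15.5 CPM in wild type and 35.2 to 82.8 CPM over the 3 mutants, root markers (8 genes) to 0.792 to 3.85 CPM in wild type and 2.96 to 37.0 CPM in the mutants, and shoot markers (6 genes) to 9558 to 10462 CPM in wild type and 7138 to 14242 CPM in the mutants. From 0 to 3 root markers and from 0 to 1 seed markers were at 0 in a library. The part of these markers in the results that follow was not tested. In bulk seedling RNA, fewer cells of a type and less RNA per cell cannot be told apart. Nothing in the labels says that the 3 libraries of a genotype came from separate cultures, so p-values measure only the spread between these samples.

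All 10 genes had enough counts to be tested. Per kb of exon, FSD1 had the highest wild-type level at 80.1 ± 12.9 CPM per kb (SD, n = 3). MSD1 followed at 7.84 ± 1.12, then COX5b at 3.77 ± 0.959, CSD3 at 3.76 ± 0.761, CSD1 at 3.19 ± 0.129, CCS at 1.5 ± 0.359, CSD2 at 1.46 ± 0.221, FSD3 at 1.11 ± 0.289, BCB at 0.737 ± 0.370 and FSD2 at 0.43 ± 0.151. COX5b, CSD3 and CSD1 did not differ beyond their spread, nor did CCS and CSD2. FSD1 made up 87.4% ± 2.28 of the counts of the 7 superoxide dismutase genes in wild type.

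**Figure D1:**
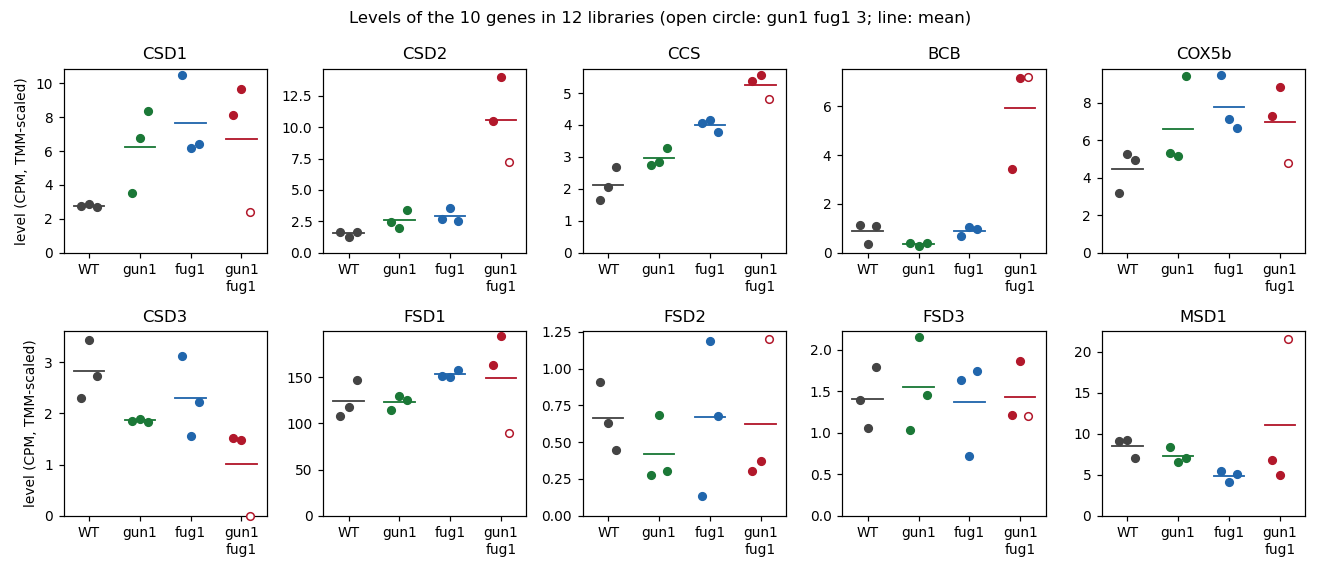
Levels of the 10 genes in CPM (TMM-scaled, vertical axes from 0) in each of the 12 libraries, by genotype; each point is a library, the open circle is gun1 fug1 3 and each line is the mean of 3 libraries. CSD2 and BCB were highest in all 3 gun1 fug1 libraries (7.20 to 14.0 CPM and 3.41 to 7.20 CPM), and CSD1 was higher in gun1 and fug1 than in wild type.

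CSD2, the Cu/Zn enzyme of the chloroplast stroma (AT2G28190, chr2:12014412-12016569, plus strand), was highest in the double mutant. It was measured at 1.66, 1.27 and 1.67 CPM in wild type libraries 1 to 3, at 2.48, 1.97 and 3.37 in gun1, at 2.72, 3.57 and 2.52 in fug1, and at 10.5, 14.0 and 7.20 in gun1 fug1. Each mutant's libraries lay above all 3 of wild type, and those of the double mutant lay above every other library. The fitted log2 difference from wild type was 0.76 ± 0.28 (SE) for gun1, 0.92 ± 0.29 for fug1 and 2.90 ± 0.27 for gun1 fug1, the last a 7.45-fold level. Between the double mutant and the single mutants it was 1.98 ± 0.28 (against fug1) and 2.14 ± 0.27 (against gun1). The counts behind these levels were low, 24 to 42 in wild type, 20 to 44 in the single mutants and 138, 151 and 6 in gun1 fug1.

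CSD1, the cytosolic Cu/Zn enzyme (AT1G08830, chr1:2827060-2829315, plus strand), was higher in both single mutants already. It was measured at 2.77, 2.90 and 2.68 CPM in wild type, at 3.51, 6.78 and 8.34 in gun1, at 10.5, 6.19 and 6.39 in fug1, and at 8.12, 9.66 and 2.40 in gun1 fug1. The gun1 and fug1 libraries lay above wild type without overlap, and gun1 fug1 overlapped wild type through library 3, which held 2 counts of CSD1. The log2 differences from wild type were 1.15 ± 0.30 for gun1, 1.45 ± 0.30 for fug1 and 1.55 ± 0.31 for gun1 fug1. The double mutant was thus 0.10 ± 0.31 above fug1 and 0.40 ± 0.30 above gun1 on the log2 scale. Within each mutant the libraries ranked the same way by CSD1 and by the summed root markers, which reached 2.96, 11.8 and 31.5 CPM in gun1 1, 2 and 3, and the part of these markers in CSD1 was not tested. The neighbouring AT1G08840, on the opposite strand, overlaps CSD1 by 211 bases, and it was measured at 0.944 to 1.65 CPM in gun1 and 0.357 to 0.951 CPM in fug1.

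Because CSD1 and CSD2 were counted in the same library, their ratio does not depend on scaling. CSD2 had 0.436 to 0.625 counts per CSD1 count in wild type, 0.291 to 0.706 for gun1, 0.260 to 0.577 for fug1 and 1.29, 1.45 and 3.00 for gun1 fug1. The double mutant held more CSD2 than CSD1 counts in every library, and the other 9 libraries held fewer.

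CCS, the chaperone that loads copper into the Cu/Zn enzymes (AT1G12520, chr1:4267074-4268982, minus strand), was graded across the genotypes. Its level was 1.66, 2.06 and 2.68 CPM in wild type, 2.75, 2.83 and 3.29 in gun1, 4.07, 4.17 and 3.78 in fug1, and 5.39, 5.57 and 4.80 in gun1 fug1. Each mutant lay above wild type and the double mutant above both single mutants, with no overlap in any of these comparisons. The log2 difference from wild type was 0.48 ± 0.25 for gun1, 0.92 ± 0.25 for fug1 and 1.35 ± 0.26 for gun1 fug1, where library 3 held 4 counts of CCS.

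CSD3, the Cu/Zn enzyme of peroxisomes (AT5G18100, chr5:5987187-5988885, plus strand), is not a known miR398 target and did not go with CSD1 and CSD2. It was measured at 2.30, 3.43 and 2.73 CPM in wild type, at 1.86, 1.89 and 1.84 in gun1, at 3.12, 1.55 and 2.23 in fug1, and at 1.52, 1.49 and 0 in gun1 fug1. The gun1 and gun1 fug1 libraries lay below wild type, and fug1 overlapped it. In gun1 fug1 3 a count of 0 allows up to 3.60 CPM, so a level as high as wild type was not detectable there. The log2 difference was -0.59 ± 0.30 for gun1, -0.30 ± 0.31 for fug1 and -0.98 ± 0.35 for gun1 fug1, and -0.90 ± 0.32 in the double mutant without library 3. CSD3 overlaps 2 loci on the opposite strand by 405 and 142 bases, and whether counting used strand is not given in the sources used here.

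BCB, a plasma membrane blue copper protein gene (AT5G20230, chr5:6826365-6827748, plus strand), had the largest differences of the 10 genes between the double mutant and each single mutant. It was measured at 1.15, 0.369 and 1.12 CPM in wild type, at 0.413, 0.257 and 0.383 in gun1, at 0.679, 1.07 and 0.968 in fug1, and at 3.41, 7.15 and 7.20 in gun1 fug1. The double mutant lay above all other libraries, and both single mutants overlapped wild type. The log2 difference from wild type was -1.30 ± 0.51 for gun1, 0.04 ± 0.46 for fug1 and 2.60 ± 0.39 for gun1 fug1, a 6.08-fold level. Counts were 3 to 29 outside the double mutant and 45, 77 and 6 in it. The gun1 effect in fug1 less the gun1 effect in wild type was 3.86 ± 0.66 on the log2 scale for BCB, 1.21 ± 0.40 for CSD2, -0.05 ± 0.36 for CCS and -1.04 ± 0.43 for CSD1.

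COX5b, the zinc-binding subunit of mitochondrial cytochrome c oxidase (AT3G15640, chr3:5298991-5301745, plus strand), had 3.17, 5.28 and 4.97 CPM in wild type, 5.30, 5.15 and 9.41 in gun1, 9.51, 7.15 and 6.68 in fug1, and 7.28, 8.82 and 4.80 in gun1 fug1. Only the fug1 libraries lay wholly above wild type. The log2 difference was 0.58 ± 0.26 for gun1, 0.80 ± 0.26 for fug1 and 0.79 ± 0.27 for gun1 fug1. Its close copy COX5B-2 differed from wild type by 0.57 ± 0.23 in gun1, by 0.79 ± 0.24 in fug1 and by 0.67 ± 0.25 in gun1 fug1, and reads shared by such copies could be split between them.

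**Figure D2:**
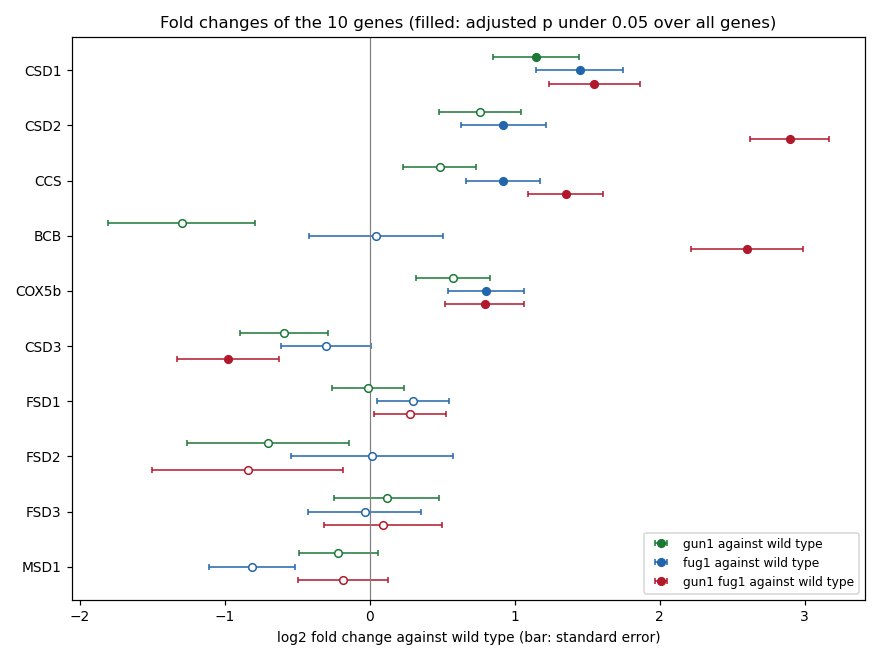
Log2 fold change against wild type for the 10 genes in gun1, fug1 and gun1 fug1, with standard errors; filled points have an adjusted p under 0.05 over all genes tested. CSD2 and BCB stand at 2.90 and 2.60 in gun1 fug1, and CSD1 at 1.15 to 1.55 in all 3 mutants.

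FSD1, the iron enzyme of the chloroplast and the most abundant of the set (AT4G25100, chr4:12884300-12887011, minus strand), varied far less. Its level was 108, 118 and 147 CPM in wild type, 115, 130 and 126 in gun1, 151, 150 and 158 in fug1, and 163, 194 and 90.0 in gun1 fug1. The fug1 libraries lay just above wild type, and the other mutants overlapped it. The log2 difference was -0.01 ± 0.25 for gun1, 0.30 ± 0.25 for fug1 and 0.28 ± 0.25 for gun1 fug1. Without gun1 fug1 3 the last value was 0.52 ± 0.18. The sign in fug1 and gun1 fug1 depended on how the libraries were scaled, as given with the scalings.

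FSD2 and FSD3, the iron enzymes at the plastid nucleoids, were near the limit of what the libraries could measure. FSD2 had 0.136 to 1.2 CPM over all libraries, from 1 to 23 counts, and FSD3 0.715 to 2.15 CPM, from 1 to 35 counts. Mutant and wild-type libraries overlapped for both genes in every comparison, with log2 differences of -0.84 ± 0.66 to 0.02 ± 0.56 for FSD2 and -0.03 ± 0.39 to 0.12 ± 0.36 for FSD3. Differences well above the size of these errors could also go undetected at this depth. CSD2 in gun1, at 0.76 ± 0.28, was not among the called differences given below.

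MSD1, the manganese enzyme of mitochondria (AT3G10920, chr3:3417940-3419892, plus strand), was lower in fug1. It was measured at 9.07, 9.29 and 7.09 CPM in wild type, at 8.32, 6.52 and 7.04 in gun1, at 5.43, 4.05 and 5.03 in fug1, and at 6.83, 4.92 and 21.6 in gun1 fug1. The fug1 libraries lay below wild type, and gun1 fug1 spanned it because library 3 had the highest value of all. The log2 difference was -0.22 ± 0.27 for gun1, -0.81 ± 0.30 for fug1 and -0.18 ± 0.31 for gun1 fug1. Without gun1 fug1 3 the last 2 were -0.82 ± 0.21 and -0.52 ± 0.22.

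Counts of calls were set against all 15371 genes tested by edgeR's quasi-likelihood test, with a call at a Benjamini-Hochberg adjusted p under 0.05. In gun1 against wild type 1 of the 10 genes was called (CSD1, higher), where 5.94% of all genes were, 3.52% higher and 2.42% lower. In fug1 there were 4 (CSD1, CSD2, CCS and COX5b, all higher), against 17.8% of all genes, 9.94% higher and 7.88% lower. In gun1 fug1 there were 6, with CSD1, CSD2, CCS, BCB and COX5b higher and CSD3 lower, against 21.9% of all genes, 12% higher and 9.88% lower. CSD2 and BCB were called higher in gun1 fug1 than in fug1, where 0.267% of all genes were called, 0.163% higher and 0.104% lower. Both were again called higher than in gun1, where 3.09% were called, 1.61% higher and 1.48% lower. BCB alone was called in the interaction (higher), against 1.34% of all genes, 0.8% higher and 0.54% lower. Nothing is read from these counts, since the genes were chosen with these comparisons known. Libraries that did not overlap wild type were also common in general: 14.8% of all genes lay wholly higher and 13.3% wholly lower for gun1, 21.1% and 19.7% for fug1 and 13.8% and 20.9% for gun1 fug1. Against fug1, 7.28% of all genes lay wholly higher in gun1 fug1 and 10.7% wholly lower, and against gun1 8.42% and 13.3%. The 3 comparisons with wild type share its libraries.

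The median of the 10 log2 differences from wild type was 0.05 for gun1, 0.17 for fug1 and 0.54 for gun1 fug1, beside 0.02, -0.0037 and -0.03 over all genes tested. The 5 known targets supplied the upper values of each of these comparisons except for BCB in the single mutants. The other 5 genes stayed between -0.98 (CSD3 in gun1 fug1) and 0.30 (FSD1 in fug1).

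Ratios to FSD1 in the same library need no scaling between libraries, but they take FSD1 itself as the reference. They rest on the same counts and are not separate support. By library totals without gun1 fug1 3, FSD1 in fug1 was at -0.85 ± 0.17, CSD2 at -0.23 ± 0.29 and CCS at -0.23 ± 0.25. A higher ratio can therefore go with a lower FSD1 level. Per 100 FSD1 counts, CSD2 had 1.07 to 1.53 counts in wild type, 1.52 to 2.68 for gun1, 1.59 to 2.38 for fug1 and 6.42 to 8.00 for gun1 fug1. CSD1 had 1.82 to 2.56, 3.05 to 6.63, 4.04 to 6.92 and 2.67 to 4.98 counts in the same order, and CCS 1.53 to 1.82, 2.18 to 2.62, 2.39 to 2.77 and 2.87 to 5.33. For CSD1 and CCS each of the 3 mutants lay above wild type without overlap, gun1 fug1 3 included. For CSD2 fug1 and gun1 fug1 did, while gun1 began just under the highest wild-type value. In gun1 fug1 3 these ratios rest on 2 counts of CSD1, 4 of CCS and 6 of CSD2 over 75 of FSD1. Its CSD1 value of 2.67 was close to the highest wild-type value of 2.56. The share of all genes lying wholly apart in such a ratio is not given here. BCB had 0.313 to 1.06 counts in wild type, 0.198 to 0.359 for gun1, 0.449 to 0.713 for fug1 and 2.09 to 8.00 for gun1 fug1. MSD1 went the other way in fug1, from 4.83 to 8.36 counts in wild type to 2.69 to 3.59. The FSD1 share of superoxide dismutase counts was 86.1% ± 1.06 for gun1, 88.6% ± 1.76 for fug1 and 81.2% ± 7.30 for gun1 fug1 (SD, n = 3), with ranges that all overlapped that of wild type.

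**Figure D3:**
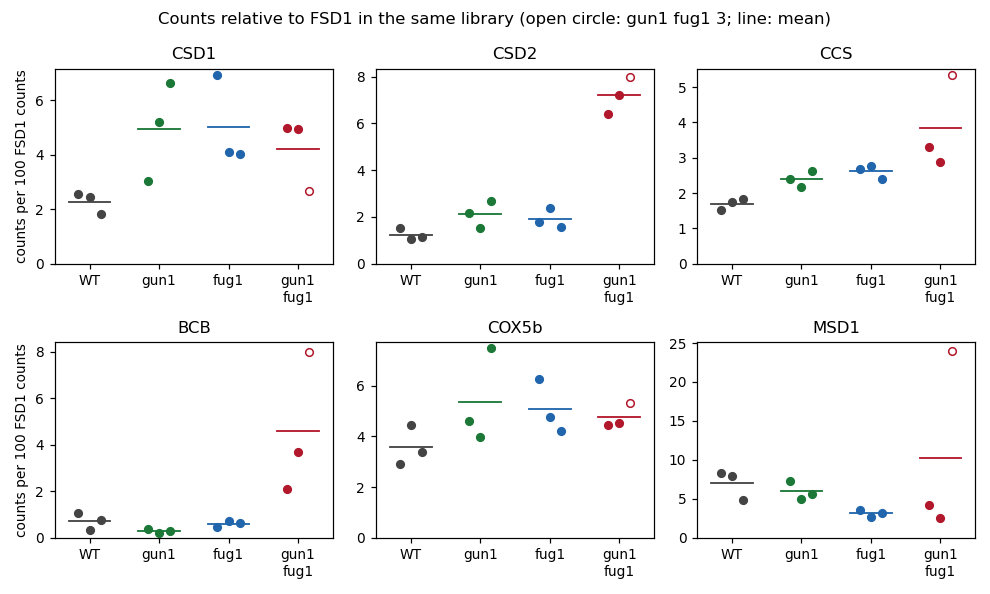
Counts of 6 genes per 100 FSD1 counts of the same library (vertical axes from 0), by genotype; each point is a library, the open circle is gun1 fug1 3 and each line is the mean of 3 libraries. CSD2 stands at 6.42 to 8.00 in gun1 fug1 and below 3 elsewhere, and CSD1 and CCS lie above wild type in every mutant library. The gun1 fug1 3 values rest on 2 counts of CSD1 and 4 of CCS over 75 of FSD1.

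How the libraries were scaled decided the direction of some of these differences. TMM set the median gene near no change, whereas scaling by library totals without gun1 fug1 3 put that median at -0.54 for gun1, -1.16 for fug1 and -0.62 for gun1 fug1. On that scale CSD2 was at 0.21 for gun1, -0.23 for fug1 and 2.40 for gun1 fug1, and CSD1 at 0.58, 0.28 and 1.08. CCS was at -0.23 and COX5b at -0.35 in fug1, so the direction of CSD2, CCS and COX5b in fug1 held relative to other nuclear genes and not relative to all counts. FSD1 in fug1 went from 0.30 ± 0.25 by TMM to -0.08 ± 0.17 by nuclear totals and -0.85 ± 0.17 by library totals. In gun1 fug1 it went from 0.28 ± 0.25 to -0.03 ± 0.19 and -0.05 ± 0.19, so it was above wild type by TMM alone of the 3. These TMM values hold all 12 libraries, and the values by totals leave out gun1 fug1 3. By TMM without that library FSD1 in gun1 fug1 stood further above wild type, as given with FSD1. BCB in fug1 went from 0.04 ± 0.46 to -0.33 ± 0.47 and -1.10 ± 0.47. By library totals without gun1 fug1 3 the 10 genes gave 0 higher and 4 lower calls for gun1. They gave 0 and 5 for fug1 and 4 and 2 for gun1 fug1. Of 16201 genes tested in that fit, 364 were called higher and 5367 lower for gun1. The counts were 218 and 11874 for fug1 and 849 and 5794 for gun1 fug1. With totals of nuclear genes, also without gun1 fug1 3, the median was -0.26, -0.37 and -0.58, and CSD2 stood at 0.49, 0.55 and 2.43, CSD1 at 0.86, 1.06 and 1.11, CCS at 0.20, 0.54 and 0.82, and BCB at -1.58, -0.33 and 1.99. The calls were then 1 higher and 2 lower for gun1, 1 and 1 for fug1 and 4 and 2 for gun1 fug1. Of 15710 genes tested by nuclear totals, 445 were called higher and 2025 lower for gun1. The counts were 802 and 3898 for fug1 and 855 and 5551 for gun1 fug1. With all 12 libraries CSD2 in gun1 fug1 was at 1.86 ± 1.01 by nuclear totals and 1.84 ± 0.89 by library totals. In both fits without gun1 fug1 3 CSD1, CSD2, CCS and BCB were higher, and CSD3 and MSD1 lower, in gun1 fug1.

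**Figure D4:**
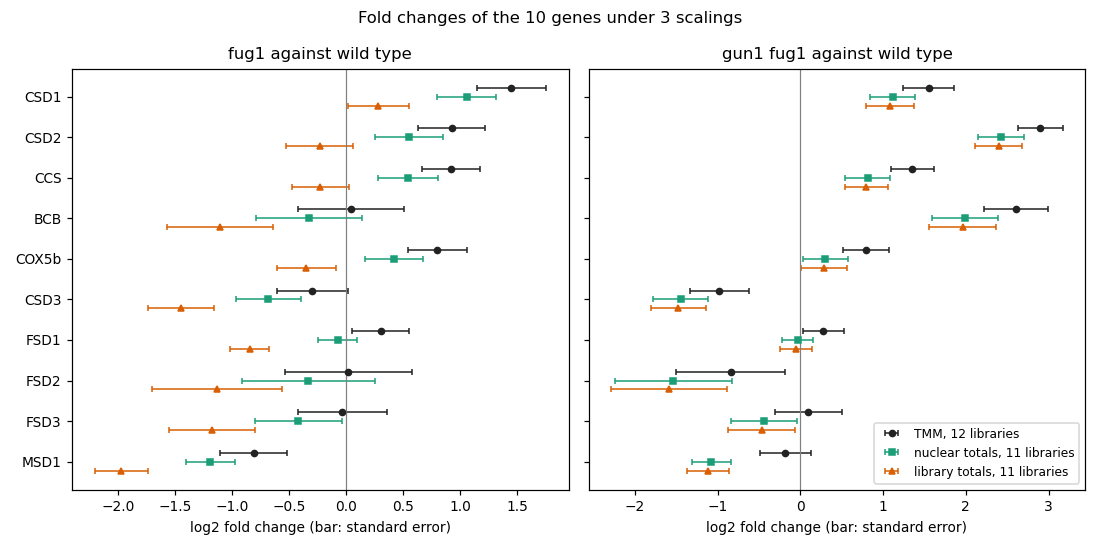
Log2 fold change of the 10 genes in fug1 (left) and gun1 fug1 (right) against wild type under 3 ways of scaling the libraries, with standard errors. In fug1 CSD2 moves from 0.92 by TMM to 0.55 by nuclear totals and -0.23 by library totals, and in gun1 fug1 from 2.90 to 2.43 and 2.40. The TMM fit holds all 12 libraries and the other two leave out gun1 fug1 3; TMM without that library gave 2.98.

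Other genes of copper supply moved in both directions. The companion lists used from here on were also chosen with earlier results of these data known. Adjusted p-values of their genes are therefore a description too. Of 24 copper handling genes 18 were tested: 1 rose for gun1, 4 rose and 2 fell for fug1 and 3 rose and 3 fell for gun1 fug1, by the same test and threshold. Of all genes, 5.94% were called for gun1, 17.8% for fug1 and 21.9% for gun1 fug1. The copper chaperone CCH fell most clearly, from 35.2 ± 3.68 CPM in wild type to 20.6 ± 2.98 in fug1 and 9.83 ± 4.64 in gun1 fug1 (SD, n = 3), and all 3 gun1 fug1 libraries lay below wild type. Its log2 change in gun1 fug1 was -1.65 ± 0.24 (edgeR adjusted p = 5.11e-05) against wild type and -1.45 ± 0.24 (edgeR adjusted p = 0.00152) against gun1. RAN1, the copper pump of the secretory pathway, rose by 0.97 ± 0.21 in fug1 (edgeR adjusted p = 0.0042) and 0.97 ± 0.22 in gun1 fug1 (edgeR adjusted p = 0.00361). The metal-nicotianamine transporter YSL2 rose by 0.60 to 0.75 in the 3 mutants.

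The regulator SPL7 was at 3.08 ± 0.348 CPM in wild type and differed from it by 0.10 ± 0.28 for gun1, 0.25 ± 0.30 for fug1 and 0.17 ± 0.31 for gun1 fug1, which did not pass the test. Plastocyanin is encoded by PETE1 and PETE2. PETE2 was at 725 ± 30.4 CPM in wild type, 614 ± 181 for gun1, 628 ± 73.1 for fug1 and 316 ± 167 for gun1 fug1, and it fell by 1.19 ± 0.34 on the log2 scale in the double mutant (edgeR adjusted p = 0.0167). Without gun1 fug1 3 that change was -0.82. PETE1 was at 33.7 ± 2.06 CPM in wild type and 23.0 ± 16.2 in gun1 fug1, and none of its differences passed.

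Some targets of the other copper microRNAs, mostly laccases, which oxidise phenolics in cell walls, were higher in fug1 and gun1 fug1. Of 8 such genes 5 were tested, of which LAC3, LAC4, LAC7 and LAC13 rose in fug1, LAC3, LAC7 and LAC13 in gun1 fug1, and none was called in gun1. Of all genes, 9.94% were called higher in fug1, 12% in gun1 fug1 and 3.52% in gun1. LAC17 was not called in any of these and had log2 differences of -0.47 ± 0.36 for gun1, -0.76 ± 0.40 for fug1 and -0.66 ± 0.42 for gun1 fug1. LAC7 went from 0.593 ± 0.506 CPM in wild type to 4.92 ± 0.661 in fug1, a log2 change of 3.11 ± 0.67 (edgeR adjusted p = 0.0114), and LAC3 rose by 3.54 ± 0.68 in gun1 fug1 (edgeR adjusted p = 0.00502), where library 3 held no count of it. Of 6 root markers tested, 2 rose for gun1, 5 for fug1 and all 6 for gun1 fug1, with a median log2 difference of 3.20 for gun1, 3.44 for fug1 and 4.18 for gun1 fug1; their part in the laccase values was not tested. The 7 loci of the copper microRNAs themselves, MIR398A to MIR398C included, were not among the gene IDs of the count tables. Their levels could therefore not be given.

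Enzymes that remove hydrogen peroxide, the product of the dismutases, showed no common direction. Of 33 genes 31 were tested: 1 fell for gun1, 1 rose and 4 fell for fug1 and 5 rose and 4 fell for gun1 fug1. Called shares of all genes were 5.94% for gun1, 17.8% for fug1 and 21.9% for gun1 fug1. GPX2, a glutathione peroxidase-like enzyme, was at 8.5 ± 1.85 CPM in wild type, 3.28 ± 0.758 for gun1, 3.12 ± 1.12 for fug1 and 3.89 ± 0.794 for gun1 fug1, and its log2 change was -1.36 ± 0.26 in gun1 (edgeR adjusted p = 0.00286). GPX1, the plastid form, changed by -0.84 ± 0.24 in fug1 and -1.01 ± 0.24 in gun1 fug1 (edgeR adjusted p = 0.00484). Among 8 genes for cytochrome oxidase subunits, COX5C3 rose by 1.52 ± 0.42 in fug1 and 1.65 ± 0.42 in gun1 fug1, COX5B-2 rose in fug1, and COX6B2 fell by 1.49 ± 0.42 in gun1 fug1. GPX2 and COX5C3 overlap other loci. In gun1 fug1 against fug1 none of the 64 companion genes tested was called, where 0.267% of all genes were.

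**Figure D5:**
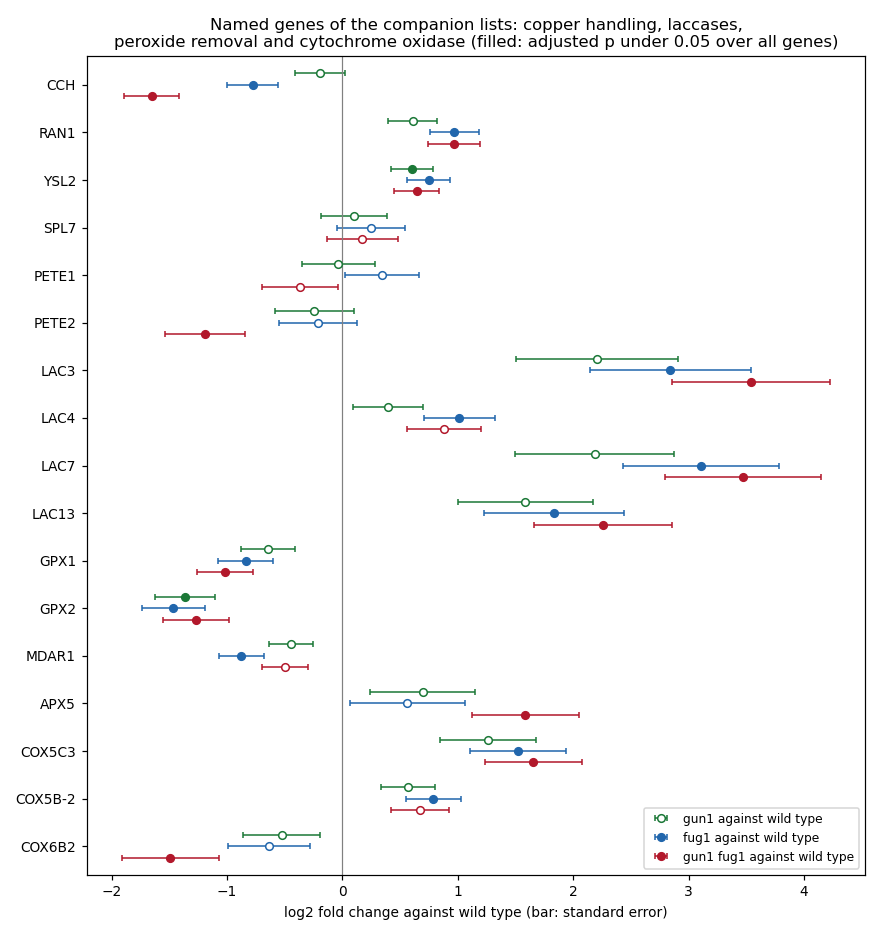
Log2 fold change against wild type, with standard errors, for named genes of copper handling, plastocyanin, laccase, peroxide removal and cytochrome oxidase; filled points have an adjusted p under 0.05 over all genes tested. CCH lies at -1.65 and PETE2 at -1.19 in gun1 fug1, and the laccases LAC3 and LAC7 lie near 3 or above in fug1 and gun1 fug1.

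The locus MIR398B lies wholly within AT5G14550 (chr5:4691006-4694055), a gene on the opposite strand for a glycosyltransferase-like protein, with an overlap of 116 bases. This gene was looked at for its position, after its counts had been seen. It was measured at 5.35, 4.70 and 5.58 CPM in wild type, 8.05, 7.90 and 7.20 in gun1, 6.93, 6.55 and 6.0 in fug1, and 4.10, 4.18 and 3.60 in gun1 fug1. The gun1 libraries were the highest and the double mutant's the lowest, with no overlap between any of the 4 genotypes, though gun1 fug1 3 held 3 counts. The difference of gun1 fug1 from gun1 was -0.91 ± 0.22 (edgeR adjusted p = 0.0262), and the gun1 effect in fug1 less that in wild type was -1.23 ± 0.30 (edgeR adjusted p = 0.0402). Without strand, reads from this gene and from a MIR398B precursor cannot be told apart.

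Other genes with a match as close as the 5 targets moved in both directions. Of 43 such genes with counts, 27 were tested, and 2 rose and 4 fell in gun1 fug1 against wild type, 1 rose and 5 fell in fug1, and 2 fell in gun1, beside the shares of all genes given with the counts of calls. In gun1 fug1 against fug1 2 rose and none fell, where 0.163% of all genes were called higher, and in the interaction 3 were called higher and 1 lower, where 0.8% and 0.54% of all genes were. AT5G14550 is among the 43 with a penalty of 0, as it lies opposite the MIR398B locus itself. It is the 1 gene called lower in the interaction, so that call is the one already given above. Their median log2 difference in gun1 fug1 against wild type was 0.05, beside -0.03 over all genes, 0.05 against fug1, beside -0.02, and 0.01 in the interaction, beside -0.08. No test of the group was run.

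The motif GTAC, the core that SPL7 binds, was counted in the 250 bases before each gene's start, and reads the same on both strands. CSD1 held 2, and CSD3, CCS, FSD1 and BCB held 1 each, where 34.3% of 27444 coding genes held at least 1 and 7.67% at least 2. CSD2, COX5b, FSD2, FSD3 and MSD1 held none in this window. MIR398B held 5, a number that 0.0437% of coding genes reached, MIR398C held 3 (1.44%) and MIR398A none.

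The genes most like CSD2 in profile were sought by the root mean square difference of centred log2 levels over the 11 libraries without gun1 fug1 3. Among 262 genes with enough counts and spread, these were AT2G07599 (0.387) and AT2G16586 (0.481), both for uncharacterized proteins, the noncoding AT3G41761 (0.433) and the dehydrin family gene AT1G54410 (0.459). Over all 12 libraries their differences were 0.577, 0.585, 0.536 and 0.576. Around FSD1 the closest of 5086 genes were the chloride channel gene CLC-D (0.0938), the serine carboxypeptidase-like gene scpl26 (0.112), the protein kinase gene STY46 (0.113) and the molybdenum cofactor gene B73 (0.114). Over all 12 libraries these were 0.419, 0.130, 0.324 and 0.574, so scpl26 alone stayed close when gun1 fug1 3 was included.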

How the data were processed

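Total RNA libraries (Illumina TruSeq) of 12 seedling samples were deposited as unnormalised counts for each gene, with a table for every library. Per the submitters' processing notes, the authors used Trimmomatic, FastQC, TopHat2 2.1.1, featureCounts and the TAIR10 genome; the annotation version, strandedness and handling of reads that match several genes are not given in the sources used here. Each table held whole numbers for the same 36917 IDs, and 0 further per-sample columns. The genotype labels gave the groups and the titles the replicate numbers; for gun1 fug1 the numbers in the names of the tables are 1 above those of the titles. No 2 libraries of a genotype agreed within sampling noise.

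Differences were fitted in edgeR 4.0.16 (R 4.3.3): filterByExpr by genotype, TMM scaling, and 1 robust quasi-likelihood fit of all 12 libraries with genotype as the factor. Log2 differences come from that fit, and CPM levels are printed without a prior count. A prior count of 2 entered only the log2 levels behind the likeness of profiles and the replicate correlations. P-values were adjusted by Benjamini-Hochberg over all 15371 genes tested, and the call threshold was 0.05. The steps were tested on simulated counts. DESeq2 1.42.0, other scalings, filters, a replicate factor and leaving out each library were the alternatives. Counting error alone limits a gene with few counts: a count of 0 allows up to 3 counts.

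Sequences, positions and promoters came from RefSeq TAIR10.1, read by gene ID and coordinates; the chromosomes of this build carry the coordinates printed. The members and the gene lists were chosen with earlier results of these data known. All 10 members are named. Of the companion lists, called genes with at most the 3 smallest adjusted p per list and comparison are named, plus SPL7, PETE1 and PETE2; the like genes had a mean of at least 50 counts and at least 0.75 of the SD of CSD2 or FSD1.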

Additional observations from a re-analysis of the deposited data

Results flagged for a closer look

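The effect of gun1 on BCB differed between backgrounds: the gun1 effect in fug1 less the gun1 effect in wild type was 3.86 ± 0.66 on the log2 scale. BCB was at 0.878 ± 0.441 CPM in wild type, at 0.351 ± 0.0824 in gun1, at 0.906 ± 0.204 in fug1 and at 5.92 ± 2.17 in gun1 fug1 (SD, n = 3). BCB was chosen with these values known, so this is a description. Leaving out any 1 library gave values from 3.46 to 4.22.

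The effect of gun1 on AT5G14550, which spans MIR398B on the opposite strand, also differed between backgrounds, by -1.23 ± 0.30 on the log2 scale (edgeR adjusted p = 0.0402). AT5G14550 was at 5.21 ± 0.458 CPM in wild type, at 7.71 ± 0.455 in gun1, at 6.49 ± 0.465 in fug1 and at 3.96 ± 0.314 in gun1 fug1. The cause of either difference was not tested. With 3 libraries a genotype, no library was tested for standing apart in a single gene.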

How the results depend on the processing

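Called genes among the 10 members numbered 1 for gun1, 4 for fug1 and 6 for gun1 fug1 against wild type. They numbered 2 for gun1 fug1 against fug1, 2 against gun1 and 1 in the interaction. The 64 companion genes tested gave 2, 17, 20, 0, 1 and 0 in the same order. The shares of all genes in these 6 comparisons are given with the counts of calls. Library totals alone, and nuclear totals alone, gave 0 members in all 6 comparisons and 0 companion genes in all 6. These 2 fits called few genes of any kind. Against wild type, library totals called 0 of 15371 genes higher and 1 lower for gun1, 0 and 8 for fug1 and 43 and 131 for gun1 fug1. Nuclear totals called 0 of 15139 higher and 0 lower for gun1, 0 and 0 for fug1 and 2 and 19 for gun1 fug1. DESeq2 gave 0 members for gun1, 2 for fug1 and 1 for gun1 fug1 against fug1. The strict filter gave 1 member in fug1, 1 in gun1 fug1 and 0 in the last 3, since most members have too few counts to enter it, and 5, 11, 3 and 3 companion genes in gun1, fug1, gun1 fug1 against gun1 and the interaction. No filter gave 8, 1, 5 and 4 companion genes in gun1, gun1 fug1 against fug1, against gun1 and the interaction. A threshold of 0.01 gave 0 members in gun1 and 1 in fug1, and 1, 4 and 7 companion genes against wild type. Fits of the compared groups alone gave 1 member in gun1 fug1 against fug1, 1 against gun1 and 13 companion genes in gun1 fug1. RLE factors and leaving out organelle genes each gave 1 companion gene in gun1, and the latter 1 in the interaction.

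The alternatives without gun1 fug1 3 under another scaling, and nuclear totals, were chosen after seeing the data. Nuclear totals without it gave 3 members in gun1 and 2 in fug1, and 16, 28, 32, 2, 5 and 3 companion genes. Library totals without it gave 4 members in gun1, 5 in gun1 fug1 against fug1 and 5 in the interaction, and 30, 50, 33, 16, 5 and 37 companion genes. Calls over all genes against wild type in both fits are given with the scalings. In the other comparisons (against fug1, against gun1, interaction), library totals called 2748, 296 and 7175 of 16201 genes higher and 30, 255 and 40 lower. Nuclear totals called 30, 163 and 337 of 15710 higher and 99, 1140 and 111 lower. Leaving out 1 library at a time gave 0 to 1, 1 to 5, 4 to 7, 1 to 2, 2 to 3 and 1 to 2 members, and 1 to 10, 3 to 20, 8 to 26, 0 to 1, 1 to 6 and 0 to 6 companion genes. Calls that held in all 12 of these fits were CSD1 in fug1 and gun1 fug1, CCS in gun1 fug1, CSD2 in the 3 comparisons of gun1 fug1, and BCB in gun1 fug1 against wild type, against gun1 and in the interaction. BCB against fug1 held in 11 of 12 and was lost without gun1 fug1 2. CSD1 in gun1 held in 7, CCS in fug1 in 8, CSD2 and COX5b in fug1 in 6 each, COX5b in gun1 fug1 in 5 and CSD3 in gun1 fug1 in 4.

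Of 1326 member fold changes under alternatives, 1147 moved by less than 1 standard error, 171 by more without turning a called direction, and 8 turned one. By library totals these 8 were CSD2 in fug1 at -0.23 with and without gun1 fug1 3, CCS in fug1 at -0.23 in both, COX5b in fug1 at -0.35 in both and COX5b in gun1 fug1 at -0.28, and by nuclear totals COX5b in gun1 fug1 at -0.28; scaling is the cause by construction. A further 136 values whose difference was not called changed sign, 62 of them under library or nuclear totals, FSD1 in fug1 at -0.85 by library totals and -0.08 by nuclear totals and BCB in fug1 at -1.10 by library totals among them. The main fit did not treat the replicate numbers as pairing the samples. Correlations of same-numbered deviations ran from -0.08 to 0.36, and 3 of 18 exceeded 0.1. These were wild type and gun1 at replicates 1 (0.31) and 3 (0.36), and gun1 and fug1 at replicate 3 (0.13). No correlations of differently numbered libraries were taken for reference, so whether some numbers mark a shared batch was not tested. With the replicate block the companion genes called were 5 in gun1, 2 in gun1 fug1 against gun1 and 1 in the interaction, and counts of members stayed within 1.5 times. Low counts limit CSD2, CCS, BCB, FSD2 and FSD3, and gun1 fug1 3 held 0 to 75 counts of each member.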
